A study of Rattus norvegicus with 6 samples.

Results

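Astrocyte marker genes were followed in cultures of rat ependymal stem cells from the spinal cord, grown in the presence or absence of glutamate. The set holds 5 of the 32883 genes counted, taken by Ensembl ID: Gfap (ENSRNOG00000002919), S100b (ENSRNOG00000001295), Aqp4 (ENSRNOG00000016043), Gja1 (ENSRNOG00000000805) and Apoe (ENSRNOG00000018454). RNA was sequenced in bulk on day 2 from 3 control libraries, kept in neurobasal medium, and from 3 libraries of cells that received 500 uM glutamate in the same medium. The purpose of the series was to read out the response of these cells, which lie around the central canal and have stem cell properties, to glutamate at a level that is toxic to neurons. The labels name no strain, age, sex or genotype, and they do not say whether libraries 1 to 3 of a group came from separate animals or cultures. P-values therefore measure the spread between these libraries, which may be technical.

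Astrocytes are glia that support neurons, take up transmitter and ions, control water flow along blood vessels and react to injury. Gfap encodes glial fibrillary acidic protein, the intermediate filament used most widely to identify astrocytes and a gene that rises in reactive astrocytes after injury. S100b encodes a calcium-binding protein of astrocytes that ependymal, oligodendrocyte-lineage and Schwann cells also make. Aqp4 encodes the water channel of astrocyte endfeet and of ependyma, Gja1 encodes connexin 43, the main gap junction protein of astrocytes, and Apoe encodes the apolipoprotein that carries lipid between cells of the nervous system. Ependymal stem cells are known as a source of new astrocytes after spinal cord injury.

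The regions before the start sites of Gfap and S100b are shown because both genes rose with glutamate, and the motif search found matches before S100b and none before Gfap. Both are from RefSeq, build GRCr8, minus strand, and are written 5′ to 3′ up to the RefSeq gene boundary. Capitals mark matches to CCAAT, the CCAAT box, on either strand.
Gfap, chr10:88361662-88361911: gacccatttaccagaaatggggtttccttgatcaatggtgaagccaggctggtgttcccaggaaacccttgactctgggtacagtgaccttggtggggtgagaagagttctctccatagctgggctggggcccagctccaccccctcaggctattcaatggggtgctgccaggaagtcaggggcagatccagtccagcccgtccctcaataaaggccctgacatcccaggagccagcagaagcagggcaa
S100b, chr20:12381160-12381331: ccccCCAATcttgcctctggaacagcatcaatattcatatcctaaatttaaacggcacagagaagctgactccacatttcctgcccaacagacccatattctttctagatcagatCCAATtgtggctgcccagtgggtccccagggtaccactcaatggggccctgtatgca

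The full window of 250 bases before each start was searched on both strands for 7 motifs. The general promoter motifs were the TATA box, spelled TATAAA, the CCAAT box just named, and the GC box, spelled GGGCGG. The sites of inducible factors were the AP-1 site, spelled TGANTCA, the cAMP response element, spelled TGACGTCA, and the STAT site, spelled TTCNNNGAA. The last motif was TTGGCA, a part of the site of the glial NFI factors. The Gfap window held 0 matches. The S100b window held 4, of which 3 were CCAAT and 1 was TTGGCA, the last of these overlapping the third CCAAT match. CCAAT occurs in 34% of the 33469 RefSeq promoter windows of this length and TTGGCA in 12%. In the Gja1 window the single match was an AP-1 site, a motif found in 6.34% of windows. It starts 58 bases before the start that defines the window. The RefSeq gene bounds begin earlier, and the site lies inside them. It is shown with its flanks and in capitals.
Gja1, chr20:36302496-36302522: tccttccagtTGAGTCAgtggcttgaa
The other genes have several RefSeq starts. Of the 2 Aqp4 windows, 1 held a CCAAT and a GC box and the other held 0 matches. The 3 Apoe windows held 1, 2 and 3 matches. The first of these held TTGGCA, the next held 2 GC boxes, and the last, which overlaps it, held the same 2 GC boxes and a CCAAT. The GC box occurs in 30.5% of all windows. Apoe, which fell, thus had CCAAT and TTGGCA as S100b did, though not in the same window. Some matches lie inside the RefSeq gene bounds: the third CCAAT and the TTGGCA of S100b, both Aqp4 matches, and the Apoe CCAAT and GC boxes. The other S100b CCAAT matches and the Apoe TTGGCA lie outside. A match is a description of the letters, and no binding was measured.

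Glutamate was followed by higher Gfap, S100b and Gja1 and by lower Apoe, while the difference in Aqp4 did not pass the test. Of the 5 genes, 3 rose and 1 fell (edgeR quasi-likelihood test, adjusted p below 0.05 over all genes). Over all 15919 genes tested, 27.7% were called, with 14.1% called higher and 13.7% called lower with glutamate. The median log2 fold change was 0.98 over the 5 genes, which is the value of S100b, and -0.01 over all genes tested. Gfap and Gja1 passed the low-count filter through the glutamate libraries alone. They could thus enter the count of rises and the median only as rises, so neither tests a shift of the set. In each of the 5 genes the 3 glutamate values did not overlap the 3 control values, which was also so in 46.8% of all genes tested. The count of called genes behind the 27.7% was 4413. It was 2603 without control replicate 2 and 2442, 2420 and 2436 without glutamate replicates 1, 2 and 3. It was higher, 5311 and 5584, without control replicate 1 and without control replicate 3. RNA of bulk cultures was measured, so a change in the number of cells that express a gene and a change in RNA per cell cannot be told apart.

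Libraries held 166567977 to 181352365 counts, so that 1 CPM (reads per 1000000 reads of the library, scaled with TMM factors) stood for at least 167 reads. A count of 3 reads corresponded to 0.0167 to 0.0180 CPM. CPM is not corrected for transcript length, so levels are compared between libraries for 1 gene and not between genes. All 5 genes passed the low-count filter. Gfap and Gja1 had fewer than 10 reads in every control library and passed through the glutamate libraries alone, so a gene with their control level could be tested only if it was higher with glutamate.

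**Figure D1:**
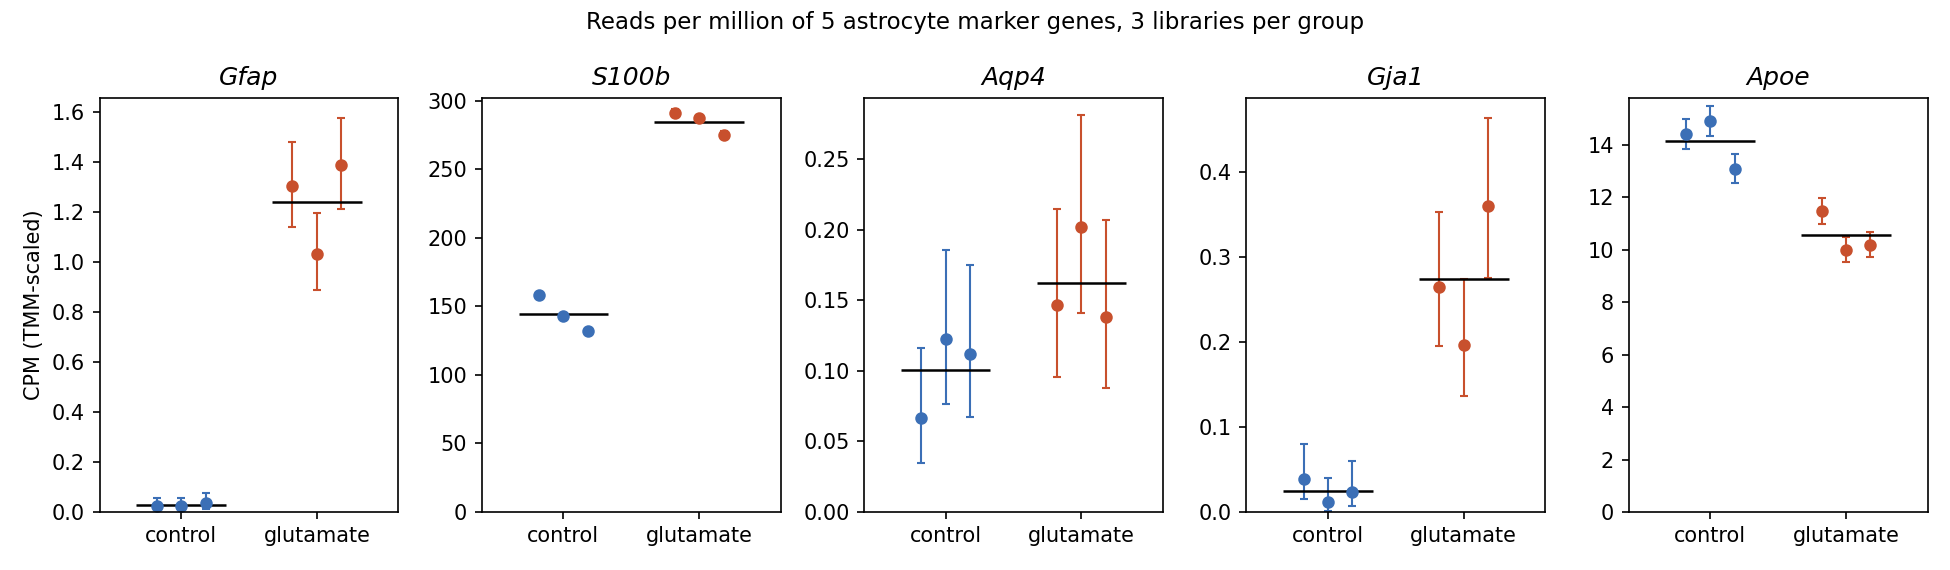
Level of each gene in each library, in CPM (vertical axes, from 0, a separate scale per gene), for the 3 control libraries (blue) and the 3 glutamate libraries (orange). Points are libraries in the order of replicates 1 to 3, bars are exact 95% Poisson intervals that cover counting error alone, and black lines are group means; Gfap and Gja1 start near 0 in control libraries, and Apoe is the gene that is lower with glutamate.

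Gfap had 4, 4 and 6 reads in control replicates 1, 2 and 3 and 231, 179 and 231 reads in glutamate replicates 1, 2 and 3. Control libraries were thus barely above the floor of 3 reads, and each glutamate library held a clear signal. In CPM the control values were 0.0222, 0.0223 and 0.0353 and the glutamate values 1.302, 1.033 and 1.387. Counting error for the 4 reads of control replicate 1 ran from 0.00606 to 0.0569 CPM (exact 95% Poisson interval), and the lowest glutamate library had a lower bound of 0.888 CPM. Mean Gfap went from 0.0266 ± 0.0075 CPM to 1.24 ± 0.18 CPM (SD, n = 3 each). Fitted over all libraries, Gfap was 45.7-fold higher with glutamate, a log2 value of 5.51 with an SE of 0.28 (edgeR adjusted p = 1.71e-06). From the summed reads, 14 in control and 641 with glutamate, the ratio was 46.9 with an exact 95% counting interval of 27.7 to 86.2. The size of the fold therefore rests on 14 control reads. Its direction was the same in 3 of 3 glutamate libraries, but the low-count filter could admit a gene with this control level only as a rise. Even after the rise the Gfap filament transcript stayed at 1.39 CPM or less.

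Gja1, the connexin 43 gene, had 7, 2 and 4 reads in control replicates 1 to 3 and 47, 34 and 60 reads in glutamate replicates 1 to 3. These were 0.0389, 0.0111 and 0.0235 CPM in control and 0.265, 0.196 and 0.360 CPM with glutamate. Control replicate 2 lay below the floor of 3 reads, and the 3 glutamate libraries lay above the 3 control libraries. Means were 0.0245 ± 0.0139 CPM in control and 0.274 ± 0.082 CPM with glutamate (SD, n = 3 each). Gja1 rose 10.9-fold, by 3.44 on the log2 scale with an SE of 0.47 (edgeR adjusted p = 0.000764). Summed reads of 13 and 141 gave a ratio of 11.1 with an exact 95% counting interval of 6.29 to 21.4. Connexin 43 transcript thus rose from a level near the floor and remained below 0.4 CPM in these 6 libraries.

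S100b was measured with far more reads. The calcium-binding protein's transcript had 28439, 25677 and 22397 reads in control replicates 1 to 3 and 51664, 49751 and 45858 reads in glutamate replicates 1 to 3. In CPM the control libraries stood at 158.0, 142.9 and 131.8 and the glutamate libraries at 291.3, 287.2 and 275.3. All 3 glutamate values lay well above all 3 control values, and the control libraries were the more spread. Means were 144.2 ± 13.2 and 284.6 ± 8.3 CPM (SD, n = 3 each), which are coefficients of variation of 9.12% in control and 2.91% with glutamate. S100b rose 1.97-fold, by 0.98 on the log2 scale with an SE of 0.07 (edgeR adjusted p = 1.65e-05).

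Aqp4, the water channel gene, had 12, 22 and 19 reads in control replicates 1 to 3 and 26, 35 and 23 reads in glutamate replicates 1 to 3. The corresponding values were 0.0667, 0.122 and 0.112 CPM in control and 0.147, 0.202 and 0.138 CPM with glutamate. Every glutamate library was above every control library, by as little as 1 read between glutamate replicate 3 and control replicate 2. Means were 0.10 ± 0.03 and 0.162 ± 0.035 CPM (SD, n = 3 each). The fitted difference for Aqp4 was 0.69 on the log2 scale with an SE of 0.36 (edgeR adjusted p = 0.18), and its 95% interval ran from -0.12 to 1.5. No change and a rise as large as that of S100b both lie within that interval. Summed reads of 53 in control and 84 with glutamate gave a ratio of 1.62 with an exact 95% counting interval of 1.14 to 2.33, which does not include 1. Aqp4 was thus higher with glutamate beyond counting error of these libraries, but not beyond the spread between libraries that the fit estimated.

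Apoe, the lipid carrier gene, had 2594, 2681 and 2223 reads in control replicates 1 to 3 and 2035, 1731 and 1699 reads in glutamate replicates 1 to 3. Levels were 14.4, 14.9 and 13.1 CPM in control and 11.5, 9.99 and 10.2 CPM with glutamate. Each glutamate library was lower than each control library. The control mean was 14.1 ± 0.9 CPM and the glutamate mean 10.6 ± 0.8 CPM (SD, n = 3 each). Apoe was 1.34-fold lower with glutamate, a log2 difference of -0.42 with an SE of 0.09 (edgeR adjusted p = 0.00805). This call was close to the threshold in some subsets of the libraries: the adjusted p was 0.0482 without control replicate 2, 0.0498 without glutamate replicate 2 and 0.0444 without glutamate replicate 3. It did not pass a test against a change of 1.5-fold (edgeR glmTreat adjusted p = 1).

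**Figure D2:**
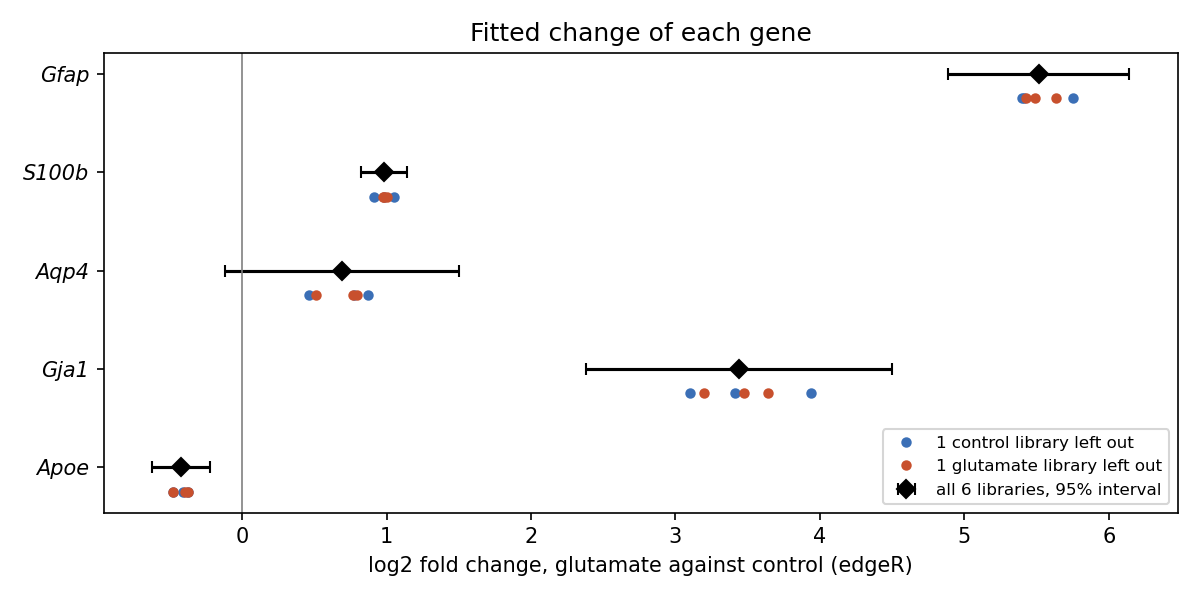
Log2 fold change of each gene with glutamate against control (horizontal axis; 0 is no change). Diamonds with bars are the fit over 6 libraries with its 95% interval, and dots below them are the fits with 1 control (blue) or 1 glutamate (orange) library left out; the interval crosses 0 for Aqp4 alone, and Apoe is the gene below 0.

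The spread between libraries was compared with counting error, as the variance of the reads within a group over the variance that counting alone gives, for which 1 is the expectation. For Gfap this was 0.373 in control and 4.71 with glutamate, and for Gja1 it was 1.42 and 4.21. Aqp4 gave 1.57 and 1.28, nearer to 1 than S100b or Apoe, though with 3 libraries per group each ratio is imprecise. The spread that the edgeR fit estimated for Aqp4 also draws on other genes, so it need not equal these ratios. S100b gave 209.9 and 41.1 and Apoe 11.01 and 10.63. For S100b and Apoe the difference between libraries, and not depth, set the error. The genes did not share a common high library within the groups. Among control libraries S100b and Gja1 were highest in replicate 1, Aqp4 and Apoe in replicate 2 and Gfap in replicate 3, and with glutamate S100b and Apoe were highest in replicate 1, Aqp4 in replicate 2 and Gfap and Gja1 in replicate 3.

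The size of each change was set beside genes of like abundance, by the mean CPM over the 6 libraries. Below 1 CPM, 3848 genes were tested, with 10.9% called higher and 3.69% called lower, and their log2 fold changes ran, from the 5th to the 95th percentile, from -0.90 to 1.54. Gfap had the 9th largest log2 fold change of these genes, Gja1 the 42nd and Aqp4 the 747th. At the control levels of Gfap and Gja1 a gene passed the low-count filter only if it was higher with glutamate. For these 2 genes the filter thus fixed a rise, though not its size. Of the 2400 genes at 100 CPM or more, 16.7% were called higher, these percentiles were -0.34 and 0.47, and S100b had the 22nd largest rise. Among the 6678 genes from 10 to 100 CPM, 18.4% were called lower and these percentiles were -0.38 and 0.56. Apoe, with the 245th largest fall there, was just outside that range. These positions are descriptions of known markers that were chosen with earlier results of these data known, and they are no test of the markers.

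**Figure D3:**
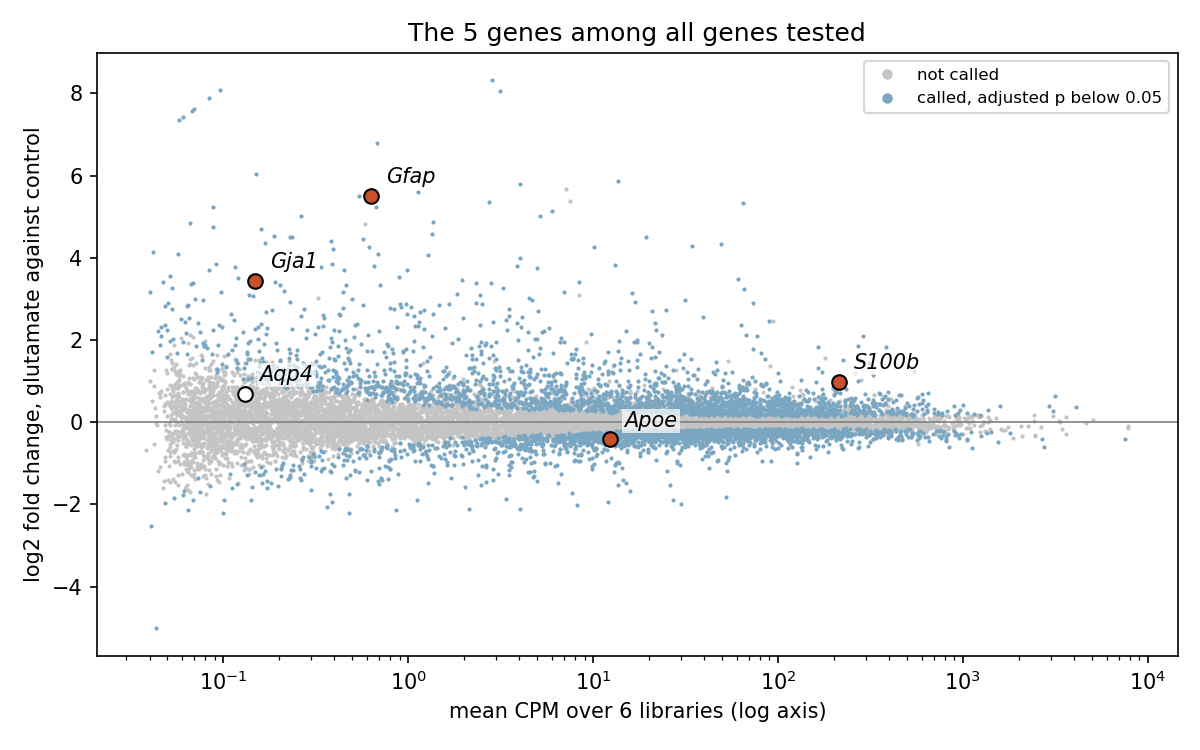
Log2 fold change with glutamate against control (vertical axis) and mean CPM over 6 libraries (horizontal log axis) of the 15919 genes tested. Blue dots passed adjusted p below 0.05 and grey dots did not; the 5 astrocyte markers are the large circles, filled where called, with Gfap and Gja1 high above most genes of low abundance, S100b near the upper edge at high abundance and Aqp4 open.

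Ratios between pairs of these genes within a library do not depend on how libraries are scaled to each other, and their change with glutamate does not depend on transcript length. The 10 pairs are built from 5 genes and so are not independent of each other. Each pair with Gfap or Gja1 holds a gene whose rise the low-count filter fixed. The share of pairs without overlap was not computed over all genes tested, so the count here is a description. For 9 of the 10 pairs the ratios of the 2 groups did not overlap. The exact two-sided permutation p of these 9 was 0.1, the smallest that 3 against 3 libraries can give (0.111 after Benjamini-Hochberg adjustment over the 10 pairs), so no pair could pass a threshold of 0.05. As a description, the mean log2 ratio of Gfap to each of the other genes was higher with glutamate. The control ratios of Gfap to Gja1 rest on 4, 4 and 6 reads of Gfap and 7, 2 and 4 reads of Gja1. Against Gja1, the other gene with a large rise, the log2 ratio of Gfap was higher by 1.95 with glutamate, from between -0.81 and 1.0 in control libraries to between 1.94 and 2.40. Against S100b it was higher by 4.58 and against Apoe by 5.99. The log2 ratio of S100b to Apoe, the pair with the most reads, was 3.35 ± 0.10 in control and 4.76 ± 0.09 with glutamate (SD, n = 3 each), a 2.65-fold change. S100b to Aqp4 was the pair whose groups overlapped, with a difference in log2 ratio of 0.26 (exact two-sided permutation p = 0.4, adjusted 0.4). This design cannot show whether the responses of S100b and Aqp4 differ, and the permutation test cannot show it for any of the 10 pairs.

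**Figure D4:**
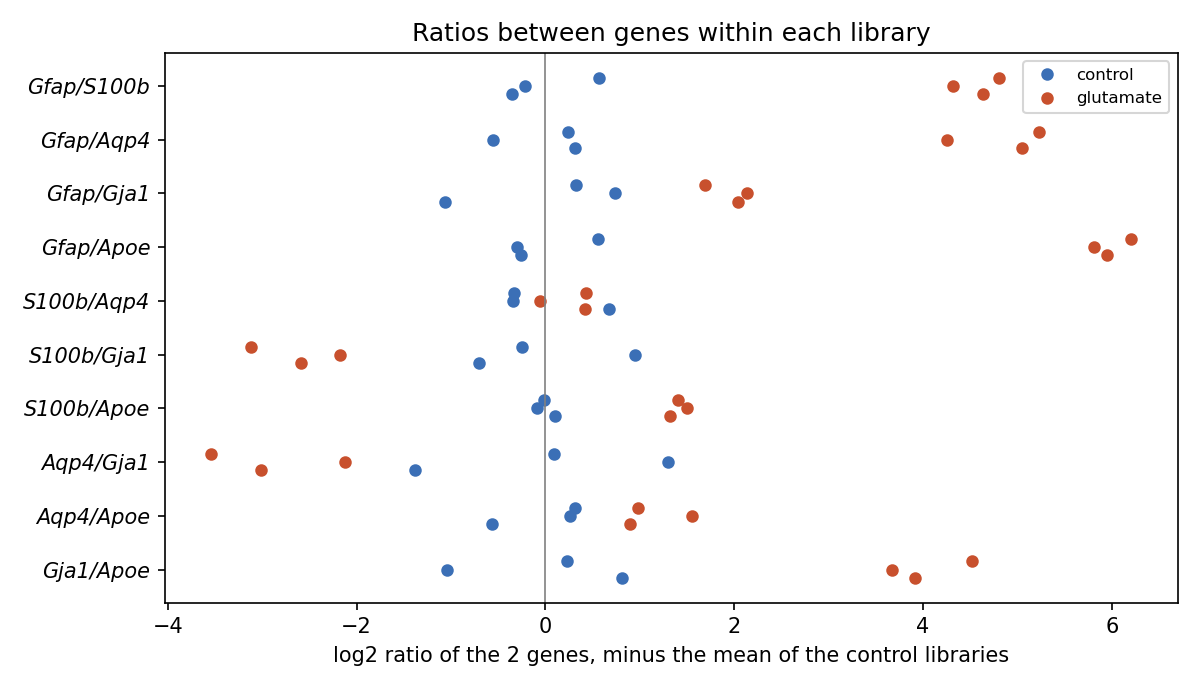
Log2 ratio of 2 genes within each library, less the mean of that ratio over the 3 control libraries (horizontal axis), for the 10 pairs (rows) in control (blue) and glutamate (orange) libraries. The colours separate in 9 rows and overlap for S100b/Aqp4.

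Genes with the most similar pattern were sought by Pearson correlation of log2 CPM over the 6 libraries, among tested genes with a mean of 5 CPM or more. The nearest to S100b were ENSRNOG00000000024 (r = 0.9999) and ENSRNOG00000043387 (r = 0.9995), with log2 fold changes of 1.17 and 0.71. The nearest to Apoe were ENSRNOG00000015304 (r = 0.9984) and ENSRNOG00000012311 (r = 0.9976), with log2 fold changes of -0.20 and -0.35. No names came with these IDs. The 6 libraries fall into 2 separate groups, so that many genes have a high r by the group difference alone: r was over 0.95 with 5.75% of genes for S100b, 7.08% for Gfap, 3.4% for Gja1, 2.77% for Apoe and 0.196% for Aqp4.

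As a check of the label, each marker in control cultures was set against the floor of 3 reads. Gfap had at most 6 reads in a control library, Gja1 at most 7 and Aqp4 at most 22. S100b and Apoe had at least 22397 and 2223 reads. Other glia and other cells also express S100b and Apoe, but ependyma also expresses Aqp4. Expression outside astrocytes thus does not separate the markers with many reads from those with few. Markers of ependyma, neurons, oligodendrocyte lineage, Schwann cells and microglia were not analysed here, because their IDs could not be matched to names, and the part of other cell types in these results was not tested.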

How the data were processed

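RNA was measured in 6 libraries made with a directional kit, per the labels' protocols. The authors deposited raw counts per Ensembl gene ID, per the file headers. The submitters' processing notes name rn6, featureCounts 2.0.1, SAMtools, STAR 2.7.8a and Trim Galore 0.6.5. For the annotation, the strand setting and shared reads, the settings were not given in the sources used here, so genes that overlap others are uncertain. Of 32883 genes, 10944 had no count in any library.

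The test was that of edgeR 4.0.16 under R 4.3.3 (filterByExpr with minimum count 10 and minimum total 15, TMM, robust quasi-likelihood test, Benjamini-Hochberg adjustment over 15919 genes, threshold 0.05), without covariates. The SE is the log2 fold change over the square root of F. The fit was tested on simulated data. Log2 CPM for correlations used a prior count of 2. Alternatives were other scalings, DESeq2 1.42.0, other filters, a replicate block, each library left out and, added after the data were seen, glmTreat against 1.5-fold. The 5 genes, the lists and the motifs were chosen with earlier results of these data known. All 5 genes were named, and the 2 nearest genes by correlation were to be named per gene, of which 4 IDs are printed because no symbols could be matched. The lists of other astrocyte, reactive, lipid, connexin, filament and cell type genes were not evaluated, as 0 rows of the RefSeq gene table (GRCr8) carry an Ensembl ID. Promoter windows were matched by symbol for 5 of 5 genes.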

Additional observations from a re-analysis of the deposited data

How the results depend on the processing

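Gfap, S100b and Gja1 kept their direction and their call under every alternative that tested them, with log2 fold changes of 5.40 to 5.75, 0.92 to 1.05 and 3.10 to 3.94. Aqp4 kept its direction and was not called in any, with 0.47 to 0.87. The filter of 1 CPM in 3 libraries left out Aqp4 and Gja1. Apoe kept its fall in every alternative (-0.48 to -0.37) and its call in the 12 planned ones. Tested against 1.5-fold its log2 fold change of -0.42 was no longer called. The fitted fall is smaller than that bound, but its 95% interval in the main fit, -0.62 to -0.22, includes a 1.5-fold fall. Other scalings moved the median log2 fold change of all genes by under 0.1. Leaving out 1 library gave 2420 to 5584 called genes, and the test against 1.5-fold gave 534; the cause of the spread between libraries left out was not tested. The replicate block gave 4553 called genes and changed no call of the 5 genes (Gfap 5.51, S100b 0.98, Aqp4 0.70, Gja1 3.45, Apoe -0.42). The numbers are not shown to pair the libraries: deviations of same-numbered libraries correlated at 0.101, -0.024 and 0.135, and 2 of 3 libraries in each group correlated best with their own number. Depth limits the control levels of Gfap and Gja1, which rest on 14 and 13 reads over 3 libraries.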
